A study of Homo sapiens with 12 samples.

Results

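The genes transcribed from the human mitochondrial genome were followed across 12 tumours. They were taken as the human rows whose GENCODE 29 symbol begins with MT-, which gave 37 of the 58243 human genes in the files. Of these, 2 encode ribosomal RNAs (rRNAs), 13 encode proteins (mRNAs) and 22 encode transfer RNAs (tRNAs), and the 3 classes were kept apart throughout. The tumours were xenografts of MCFDCIS, a human breast cell line whose grafts form lesions like ductal carcinoma in situ. They grew under the skin of athymic nude mice, a host that lacks most T cells and supplies the stroma, and had 2 weeks to establish before dosing. Palbociclib inhibits the cell cycle kinases CDK4 and CDK6, and was given daily by oral gavage at 50 mg/kg. The 4 groups of 3 tumours were palbociclib initial and vehicle initial (collected after 2 weeks of dosing) and palbociclib recovery and vehicle recovery (collected after a further period). The length of that period, the vehicle itself and the age of the mice were not given in the sources used here. All groups therefore share 1 cell line and 1 host strain. Nothing in the labels says that the tumours of a group came from separate mice. Every p-value below is therefore set against the spread between these tumours, which need not be the spread between mice.

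The mitochondrial genome is a small circle that is copied and transcribed inside the organelle. Its strands are read as long precursors, from which the tRNAs are cut out, and these cuts release most of the rRNAs and mRNAs. The mRNAs encode core subunits of complexes I, III, IV and V of oxidative phosphorylation, while the rRNAs form the core of the mitochondrial ribosome that translates them. The transcription machinery and the ribosomal proteins are encoded in the nucleus, so both genomes contribute to the same complexes.

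A few sequences show how compact these genes are, and they are shown because that compactness decides how far reads can be assigned to a single gene. All were read from the GENCODE 29 transcripts on GRCh38 and are written 5′ to 3′ on the gene's own strand. In the annotation 28 of the 37 genes lie on the plus strand and 9 on the minus strand, the latter being MT-ND6 and 8 tRNA genes. MT-ATP8 and MT-ATP6 share 46 bases at chrM:8527-8572, and capitals mark the first codon of MT-ATP6 and the last codon of MT-ATP8.
MT-ATP8/MT-ATP6 overlap: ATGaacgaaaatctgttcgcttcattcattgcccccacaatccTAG
MT-ND4L and MT-ND4 share 7 bases, shown in capitals within chrM:10740-10786.
MT-ND4L/MT-ND4 junction: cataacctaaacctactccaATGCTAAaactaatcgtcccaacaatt
A read across either overlap belongs to both genes, and how such reads were counted was not given in the sources used here. For 6 of the 13 mRNA genes the annotated length is not a multiple of 3. The last codon is left unfinished, and it is known to be completed by the poly(A) tail after processing. The last 15 bases of the genes with this ending follow, with the bases after the last whole codon in capitals.
MT-ND1 3′ end: tccccctcaaaccTA
MT-ND2 3′ end: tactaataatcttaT
MT-CO3 3′ end: attgatgagggtctT
MT-ND3 3′ end: tagactgaaccgaaT
MT-ND4 3′ end: ccgggttttcctctT
MT-CYB 3′ end: tactcaaatgggccT
The only tRNA gene with enough counts to test was MT-TP, which encodes the proline tRNA on the minus strand at chrM:15956-16023 and is shown whole because it is the sole representative of its class.
MT-TP: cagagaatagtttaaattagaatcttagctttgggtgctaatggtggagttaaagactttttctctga

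Old copies of the mitochondrial genome lie in the nuclear chromosomes, and reads from these stretches could be assigned to either place. Each gene was cut into all windows of 50 bases, and each window was looked for in all other annotated transcripts. MT-RNR1, MT-ND3, MT-ND4L and all tRNA genes had 0 windows in common with any of them. The shared part was 49.5% of windows for MT-CO1, 46.7% for MT-ATP6, 43.6% for MT-ND2, 30.6% for MT-CO3, 28.98% for MT-CO2, 22.1% for MT-ND1, 17.9% for MT-ND6 and 14.04% for MT-RNR2. For MT-ATP8, MT-ND5, MT-ND4 and MT-CYB it was 8.23%, 4.76%, 3.54% and 1.19%. Mouse sequence was not compared here. A pair of examples shows how close the copies are, with capitals marking the bases that differ. The copy MTATP6P1 on chromosome 1 matched MT-ATP6 at 671 of 681 bases (98.5%). The window of MT-ATP6 is chrM:8642-8701 and that of MTATP6P1 is chr1:633811-633870, plus strand.
MT-ATP6 window: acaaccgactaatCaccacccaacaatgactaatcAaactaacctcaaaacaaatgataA
MTATP6P1 window: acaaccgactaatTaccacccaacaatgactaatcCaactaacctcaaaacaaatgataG
MTRNR2L12 on chromosome 3 matched MT-RNR2 at 996 of 1048 aligned bases (95.0%). The window of MT-RNR2 is chrM:2221-2280 and that of MTRNR2L12 is chr3:96617626-96617685, minus strand.
MT-RNR2 window: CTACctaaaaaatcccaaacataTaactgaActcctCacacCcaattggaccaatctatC
MTRNR2L12 window: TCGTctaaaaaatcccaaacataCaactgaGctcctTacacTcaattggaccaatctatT

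Counts assigned to human genes ranged from 6613880 to 12352064 per library, and mouse genes took 14.2% to 25.4% of all gene counts. All 12 markers of basal or luminal breast epithelium had enough counts to test, with KRT5, a basal keratin, at 979 to 1920 CPM (counts per 1000000 human counts, with the library size scaled by the trimmed mean of M-values, TMM). CD3E of T cells had counts in 1 library, and PTPRC of leukocytes, LUM of fibroblasts and ALB of hepatocytes stayed below 1 CPM. DCN of fibroblasts and VWF of endothelium had 2.71 to 5.09 and 0.260 to 1.84 CPM, enough counts to test. The human rows of COL3A1, a stromal collagen, and of PECAM1, an endothelial protein, held 67.7 to 213 and 39.0 to 114 CPM. Vehicle initial libraries 2 and 3 stood apart by their mitochondrial rRNA (below), and vehicle recovery library 2 by its low share of counts in rows that name no gene, at 37.04% against 48.7% to 69.1% in the other libraries. For several fold changes and class ratios that rest on these libraries, values without them are also given. Mean levels and SDs include them. Tumour numbers follow the order of deposition and only name the tumours.

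Of the 37 genes, 16 passed the filter on low counts, namely both rRNAs, all 13 mRNAs and MT-TP. The other 21 are tRNA genes. Levels were compared between genes per kilobase of gene length, as the mean CPM per kilobase over the 12 tumours. MT-RNR2, the large-subunit rRNA, had 9625 CPM per kilobase (1369 to 43407 over the tumours) and MT-RNR1, the small-subunit rRNA, had 6600 (337 to 45460), with MT-RNR2 above MT-RNR1 in 11 of 12 tumours. In the other, vehicle initial tumour 3, MT-RNR1 had 45460 and MT-RNR2 43407 CPM per kilobase. Among mRNAs the catalytic subunits of complex IV led. MT-CO1 had 1796 CPM per kilobase (1290 to 2733), MT-CO3 1700 (1370 to 2463) and MT-CO2 965 (699 to 1697), with ranges that overlap. MT-ND3 of complex I followed at 410 (317 to 866) CPM per kilobase. MT-ND4, MT-ATP6, MT-ND4L, MT-CYB, MT-TP and MT-ND5 formed a run of overlapping ranges with means of 182, 167, 160, 137, 129 and 93.9 CPM per kilobase. MT-ND1, MT-ND2, MT-ND6 and MT-ATP8 were lowest, with mean levels of 44.0, 35.2, 21.1 and 19.5 CPM per kilobase. Genes of 1 strand and 1 complex thus differed widely, as MT-ND3 and MT-ND2 did, whose ranges did not overlap (317 to 866 and 17.6 to 63.8 CPM per kilobase). How far reads shared with nuclear copies or with mouse sequence add to these levels, or are lost from them, was not tested. MT-ND2 shared 43.6% of its windows with other transcripts, and MT-ND3 shared 0.

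The members varied much more between tumours of 1 group than most genes did. The pooled within-group SD of log2(CPM + 0.5) was 1.46 for MT-RNR1 and 1.26 for MT-RNR2, above 99.97% and 99.94% of the 18628 genes tested. The median SD was 0.61 for the 13 mRNAs and 0.26 for all genes. MT-ATP8 and MT-CYB had the highest SD among mRNAs (0.85 and 0.70), and MT-CO3 the lowest (0.30, percentile 57.2). MT-TP lay at 0.27, percentile 52.1.

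None of the 16 genes passed in any of the 5 comparisons with edgeR's quasi-likelihood test, in which an adjusted p (Benjamini-Hochberg, over all 18628 genes) under 0.05 counts as passed. For palbociclib against vehicle at the end of dosing 0 of 16 passed, where 1.84% of all genes passed. The unadjusted p was under 0.05 for 3 members (MT-RNR1, MT-RNR2 and MT-ND3; 9.86% of all genes), and DESeq2 called 1 (MT-RNR1; 3.22% of the genes to which it gave an adjusted p). After recovery 0 of 16 passed, where 0.00537% of all genes passed, with 0 members under 0.05 unadjusted (8.65% of all genes) and 0 called by DESeq2 (0.107%). For the difference between these effects 0 of 16 passed (0.22% of all genes), with 2 under 0.05 unadjusted (MT-RNR1 and MT-ND3; 5.23% of all genes) and 0 by DESeq2 (0.728%). For recovery against end of dosing the count was 0 in vehicle tumours (0% of all genes, of which 2687 had an unadjusted p under 0.05 and DESeq2 called 83; 2 members under 0.05 unadjusted, 1 by DESeq2). It was 0 in palbociclib tumours (2.82% of all genes; 1 member under 0.05 unadjusted, as 14.4% of all genes were, and 0 by DESeq2, which called 5.49%). These comparisons share groups, so their values are not independent of each other. The values themselves are described next, class by class.

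The rRNAs held the widest differences. The level of MT-RNR1 (chrM:648-1601) was 2190, 17079 and 43368 CPM in vehicle initial tumours 1 to 3 and 689, 824 and 1991 CPM in the palbociclib initial tumours. In vehicle recovery tumours it was 321, 1403 and 2612 CPM, and in palbociclib recovery tumours 1181, 1120 and 2780 CPM. All palbociclib initial values lay below all vehicle initial values, by a narrow gap from 1991 to 2190 CPM, while vehicle initial tumours 2 and 3 stood far above every other tumour. MT-RNR1 was the only member lower without overlap in this comparison, where 11.3% of all genes were. The group means were 20879 ± 20851 CPM (SD, n = 3) in vehicle initial and 1168 ± 716 CPM (SD, n = 3) in palbociclib initial tumours. The fitted log2 fold change of MT-RNR1 was -4.16 ± 1.05 (SE), with an adjusted p of 0.092 in edgeR and 0.000243 in DESeq2. The groups after recovery overlapped, as they did for every other member in that comparison (6.32% of all genes were higher and 5.5% lower without overlap), with a fitted value of 0.23 ± 0.92 (log2 ± SE; edgeR adjusted p = 0.94). The difference between these effects was 4.39 ± 1.36 (SE) on the log2 scale, with an edgeR adjusted p of 0.59, and 1.13 without vehicle initial libraries 2 and 3.

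MT-RNR2 (chrM:1671-3229) had 6121, 29253 and 67672 CPM in vehicle initial tumours 1 to 3 and 4242, 5193 and 11204 CPM in palbociclib initial tumours. It had 2134, 6057 and 17255 CPM in vehicle recovery and 7345, 7394 and 16197 CPM in palbociclib recovery tumours. The groups overlapped at both times, and the same vehicle initial tumours, 2 and 3, were the highest of all 12. The log2 fold change of MT-RNR2 was -2.32 ± 0.88 (SE; edgeR adjusted p = 0.36) at the end of dosing and 0.28 ± 0.84 (SE; edgeR adjusted p = 0.91) after recovery. The difference was 2.60 ± 1.20 (SE; edgeR adjusted p = 0.95), and 0.11 without vehicle initial libraries 2 and 3. In vehicle tumours, recovery against end of dosing gave -3.85 ± 1.03 for MT-RNR1 and -2.02 ± 0.87 for MT-RNR2 (log2 ± SE; edgeR adjusted p = 0.30 and 0.34), and DESeq2 gave MT-RNR1 an adjusted p of 0.0104. Without vehicle initial libraries 2 and 3 these values were -0.60 and 0.47. In palbociclib tumours the same contrast gave 0.54 ± 0.92 and 0.58 ± 0.84.

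**Figure D1:**
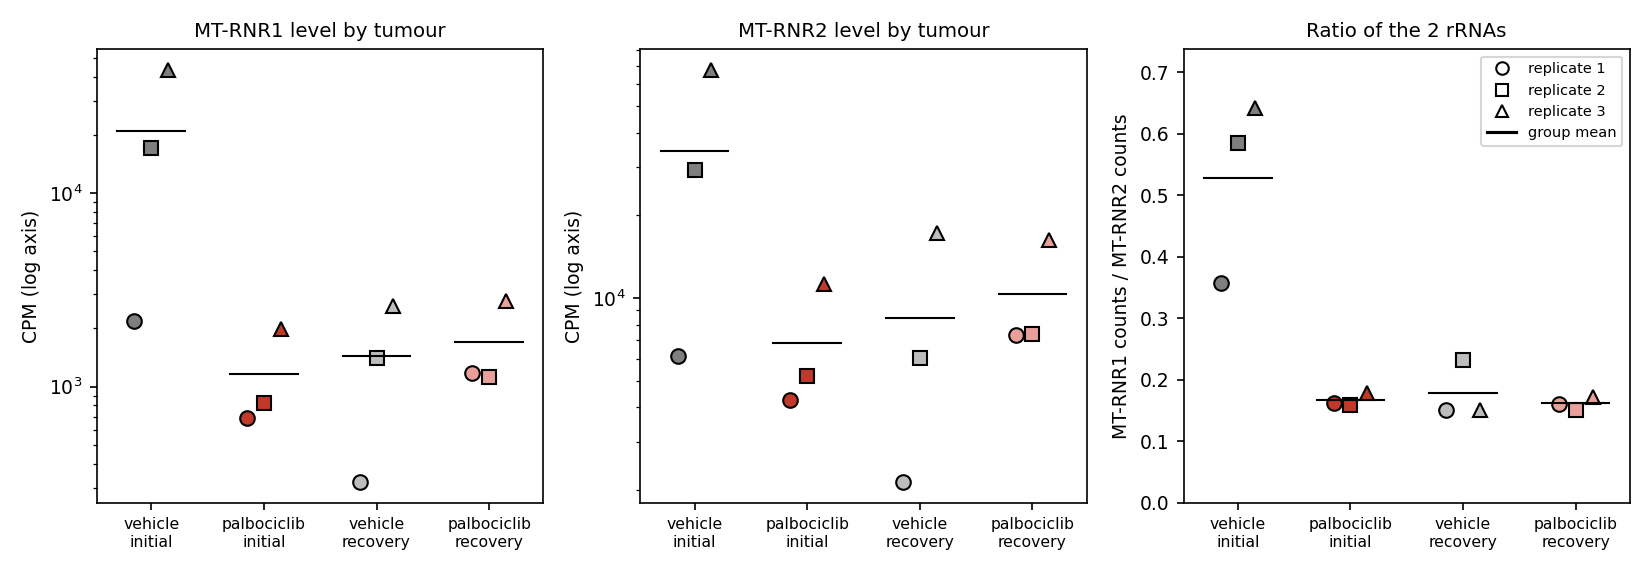
Level of MT-RNR1 and MT-RNR2 in each tumour in CPM (log axes), and the ratio of MT-RNR1 to MT-RNR2 counts (linear axis), by group, with 1 symbol per tumour and a line at the group mean. Vehicle initial tumours 2 and 3 lie highest in all 3 panels, and vehicle initial tumour 1, at a ratio of 0.358, also lies above the 9 tumours of the other groups.

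The size of both fold changes at the end of dosing depends on vehicle initial libraries 2 and 3. Without them vehicle initial is 1 tumour, which the fit assumes to vary like the tumours of the other groups, here and wherever these libraries are left out. The log2 fold change was then -0.91 for MT-RNR1 and 0.17 for MT-RNR2. The rRNAs made up 4.61% and 10.6% of human counts in those libraries and 0.248% to 1.99% in the other 10. Vehicle initial library 1, at 0.858%, lay within the range of the other groups. As a class, the log2 ratio of the groups' geometric means (palbociclib over vehicle) was -2.26 at the end of dosing and 0.64 after recovery, and -0.18 at the end of dosing without the libraries that stand apart.

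The rRNAs did not keep a fixed proportion to each other. The ratio of MT-RNR1 to MT-RNR2 counts was 0.358, 0.584 and 0.641 in the vehicle initial tumours and between 0.151 and 0.232 in all other tumours. Vehicle initial tumour 1 thus stood outside the other groups by this ratio though not by its rRNA share. The ratio of rRNA to mRNA counts was 1.81, 6.56 and 18.6 in vehicle initial tumours, 1.07, 1.37 and 1.52 in palbociclib initial, 0.581, 0.873 and 3.08 in vehicle recovery and 2.01, 1.66 and 3.81 in palbociclib recovery tumours. These ratios were chosen after the values had been seen and are given without a test.

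Some other features of the libraries moved with the rRNAs, and others did not. The last of the 4 rows that name no gene, whose meaning was not given in the sources used here, held 26.6% and 41.1% of all counts in vehicle initial libraries 2 and 3. Those with the next highest rRNA shares, vehicle recovery 3 (1.99%) and palbociclib recovery 3 (1.81%), were also next by that row, at 22.1% and 21.7%, and the other 8 lay between 10.9% and 17.4%. MTRNR2L12, the nuclear relative of MT-RNR2, stood at 11.6 CPM in vehicle initial library 3 and 3.39 CPM in library 2, and at 0.192 to 2.73 CPM in the others. Of 17 nuclear RNAs that carry no poly(A) tail, 5 had enough counts to test and 0 passed in edgeR at either time (1.84% and 0.00537% of all genes did). At the end of dosing 3 were under 0.05 unadjusted, and after recovery 1 was (9.86% and 8.65% of all genes). DESeq2 called 1, SNORD3A, at the end of dosing, where it called 3.22% of the genes to which it gave an adjusted p. It also called SNORD3A lower over time in vehicle tumours, where it called 0.516%. SNORD3A, a small nucleolar RNA, had 718, 395 and 321 CPM in vehicle initial tumours 1 to 3 and 135 to 275 CPM elsewhere, so its order within that group was the reverse of that of the rRNAs. At the end of dosing it was lower with palbociclib without overlap, as 11.3% of all genes were. Its log2 fold change at the end of dosing was -0.96 ± 0.30 (SE; edgeR adjusted p = 0.20). RNU4-1, a spliceosomal RNA, gave -1.03 ± 0.39 and RN7SL2, of the signal recognition particle, -0.57 ± 0.26 (adjusted p = 0.33 and 0.51). Human counts were lowest in vehicle initial library 3, vehicle recovery library 3 and vehicle initial library 2, at 6613880, 7655363 and 7999208. Palbociclib recovery library 3 had the most, 12352064. The part of these features in the rRNA values was not tested.

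The 13 mRNAs gave values on both sides of 0 at the end of dosing, with 8 negative and 5 positive log2 fold changes and a median of -0.47, against 0.0014 for all genes. After recovery 12 were negative and 1 (MT-ND6) positive, with a median of -0.44 against -0.0018 for all genes. None passed at either time, with edgeR adjusted p between 0.386 and 0.995 at the end of dosing and between 0.585 and 0.828 after recovery. The summed level of the mRNAs was 4581, 7059 and 5974 CPM in vehicle initial tumours 1 to 3 and 4606, 4388 and 8660 CPM in palbociclib initial tumours. It was 4222, 8548 and 6449 CPM in vehicle recovery and 4247, 5127 and 4987 CPM in palbociclib recovery tumours. The groups overlapped at both times, and palbociclib initial tumour 3 and vehicle recovery tumour 2 held the highest sums. In whole tumours such as these, fewer cells of a kind and less RNA per cell cannot be told apart.

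The medians of the mRNAs changed when libraries that stand apart were left out. Against vehicle initial tumour 1 alone, the 3 palbociclib initial tumours gave 13 positive log2 fold changes at the end of dosing, with a median of 0.33 (0.01 to 0.87). Leaving out palbociclib initial library 3 instead, which held the highest sum, turned MT-CO1, MT-CO2, MT-CO3 and MT-ATP8 negative. They were then -0.37, -0.25, -0.15 and -1.08, while MT-ND3 stayed positive at 0.27. After recovery, without vehicle recovery library 2, 5 of 13 were positive and the median was -0.10 (-0.33 to 0.44). Palbociclib initial library 3 also had the highest mouse share of the 12, 25.4%, against 17.0% and 17.6% in the other palbociclib initial libraries. The mouse share of vehicle recovery library 2 was 16.7%.

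**Figure D2:**
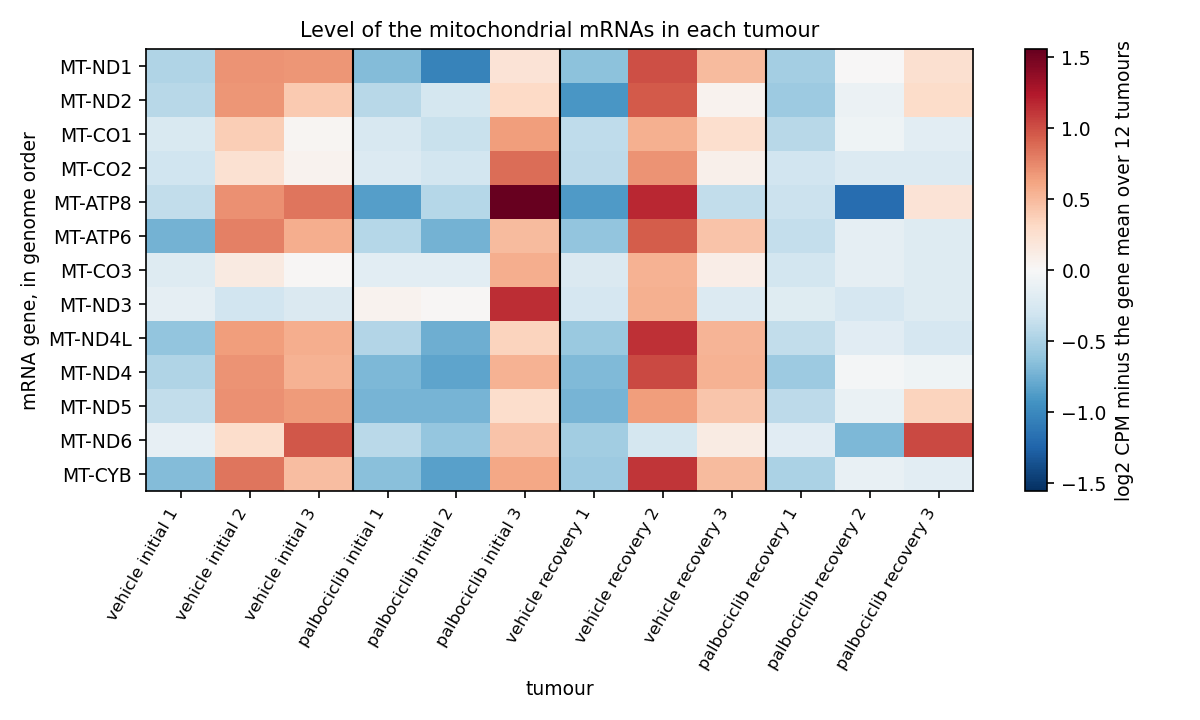
Level of the 13 mRNAs (rows, in genome order) in each tumour (columns, in groups of 3), as log2 CPM minus the gene's mean over 12 tumours, with red above and blue below that mean. Whole columns share a colour, as in vehicle recovery tumour 2 and vehicle initial tumour 2, with MT-ND3 and MT-ND6 as the rows that depart most from the others.

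Complex I is the NADH dehydrogenase that feeds electrons into the chain. With all libraries, MT-ND3 (chrM:10059-10404) alone of its 7 mRNAs had a positive log2 fold change at the end of dosing. Its level was 141, 137 and 300 CPM in palbociclib initial tumours 1 to 3, 122, 110 and 116 CPM in vehicle initial, 113, 198 and 116 CPM in vehicle recovery and 119, 113 and 118 CPM in palbociclib recovery tumours. The palbociclib initial values lay above all vehicle initial values, and it was the only member higher without overlap in that comparison, where 9.39% of all genes were. Most tumours lay within 110 and 141 CPM, and only palbociclib initial tumour 3 and vehicle recovery tumour 2 lay above. The log2 fold change of MT-ND3 at the end of dosing was 0.73 ± 0.29 (SE; edgeR adjusted p = 0.39), and 0.27 without palbociclib initial library 3. After recovery it was -0.29 ± 0.29 (SE; edgeR adjusted p = 0.72), and 0.025 without vehicle recovery library 2. The difference between the effects was -1.02 ± 0.40 (SE; edgeR adjusted p = 0.88). In palbociclib tumours, recovery lay below end of dosing without overlap (14.2% of all genes did, and 14.9% lay above, among them 0 members), and the fitted value was -0.72 ± 0.29 (log2 ± SE; edgeR adjusted p = 0.27), or -0.25 without palbociclib initial library 3. With the mouse share as a covariate the value at the end of dosing was 0.23.

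The other complex I mRNAs followed a different order of tumours. MT-ND4 had 165, 370 and 332 CPM in vehicle initial tumours 1 to 3, 141, 129 and 334 CPM in palbociclib initial, 142, 465 and 334 CPM in vehicle recovery and 154, 225 and 219 CPM in palbociclib recovery tumours. The groups overlapped at both times, and at the end of dosing palbociclib initial tumour 3 lay among the vehicle values. The log2 fold changes of MT-ND4 were -0.52 ± 0.47 and -0.65 ± 0.47 (SE) at the end of dosing and after recovery. MT-ND1 gave -0.79 ± 0.46 and -0.49 ± 0.45, MT-ND5 -0.72 ± 0.41 and -0.26 ± 0.41, MT-ND4L -0.50 ± 0.44 and -0.79 ± 0.44, and MT-ND2 -0.38 ± 0.44 and -0.31 ± 0.43. MT-ND4L, which overlaps MT-ND4, lay close to it at both times. So did MT-ATP6 (-0.47 and -0.62) and MT-CYB (-0.48 and -0.75), which do not overlap it. The other overlapping pair, MT-ATP8 and MT-ATP6, gave 0.04 and -0.47 at the end of dosing and -0.58 and -0.62 after recovery. MT-ND6, the single mRNA on the minus strand, had 6.32 to 20.8 CPM, with its highest values in palbociclib recovery tumour 3 (20.8 CPM) and vehicle initial tumour 3 (19.9 CPM). Its log2 fold changes were -0.54 ± 0.44 and 0.45 ± 0.44, and the latter was -0.20 without palbociclib recovery library 3.

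Relative to MT-ND4, MT-ND3 was highest in the palbociclib initial tumours. The ratio of MT-ND3 to MT-ND4 counts was 0.997, 1.06 and 0.896 in these tumours, 0.742, 0.297 and 0.350 in vehicle initial, 0.797, 0.425 and 0.348 in vehicle recovery and 0.772, 0.504 and 0.537 in palbociclib recovery tumours. The 3 palbociclib initial tumours thus held the highest ratios of the 12. This ratio was chosen after the values had been seen and is given without a test. Complex I mRNAs as a group took 10.1%, 10.1% and 11.3% of mRNA counts in palbociclib initial tumours and 10.9%, 13.3% and 14.9% in vehicle initial tumours, so these groups overlapped. After recovery they took 11.4%, 11.7% and 13.7% with palbociclib and 10.2%, 13.6% and 12.8% with vehicle.

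**Figure D3:**
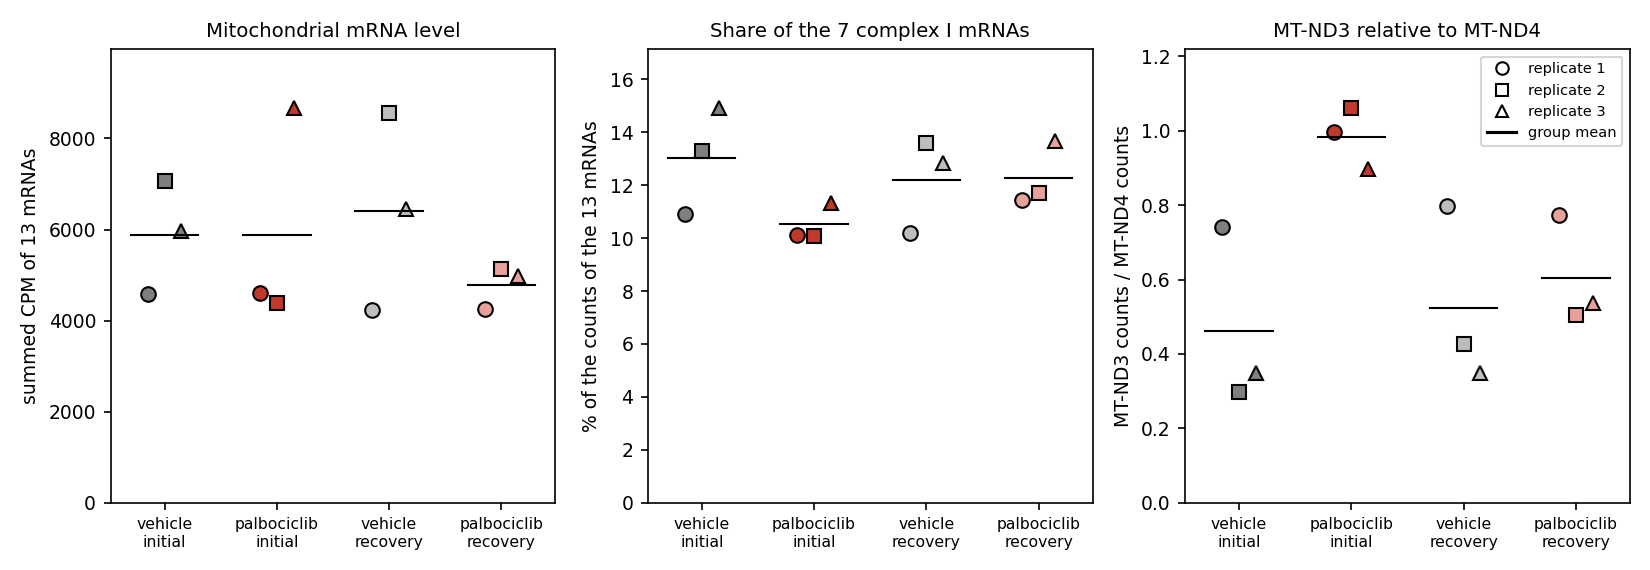
Summed level of the 13 mRNAs in CPM, share of mRNA counts held by the 7 complex I mRNAs in percent, and ratio of MT-ND3 to MT-ND4 counts, with 1 symbol per tumour and a line at the group mean. The groups overlap in the first and second panels, while in the third the palbociclib initial tumours, at 0.896 to 1.06, lie above all 9 others.

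The complex IV mRNAs, which encode the catalytic core of cytochrome c oxidase, took 79.1% to 86.6% of mRNA counts in every tumour. MT-CO1 had 2275, 3497 and 2749 CPM in vehicle initial tumours 1 to 3 and 2259, 2110 and 4215 CPM in palbociclib initial tumours. It had 2031, 3948 and 3202 CPM in vehicle recovery and 1988, 2563 and 2400 CPM in palbociclib recovery tumours. The groups overlapped at both times, with palbociclib initial tumour 3 the highest of all. The log2 fold changes of MT-CO1 were 0.01 ± 0.29 and -0.40 ± 0.29 (SE), those of MT-CO2 0.22 ± 0.32 and -0.44 ± 0.32, and those of MT-CO3 0.13 ± 0.21 and -0.38 ± 0.21. At the end of dosing the sign of all 3 turned without palbociclib initial library 3, to -0.37, -0.25 and -0.15. With the mouse share as a covariate they were -0.48, -0.33 and -0.22.

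MT-CYB encodes cytochrome b, a core subunit of complex III. Its level was 88.5, 251 and 196 CPM in vehicle initial tumours 1 to 3, 89.9, 79.0 and 215 CPM in palbociclib initial, 95.7, 307 and 198 CPM in vehicle recovery and 100.3, 131 and 126 CPM in palbociclib recovery tumours. The groups overlapped at both times, in the same order of tumours as for MT-ND4 within the vehicle groups. Its log2 fold changes were -0.48 ± 0.49 and -0.75 ± 0.49 (SE).

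MT-ATP6 and MT-ATP8 encode subunits of complex V, the ATP synthase, from overlapping frames. MT-ATP6 ranged from 62.8 to 200.4 CPM, with log2 fold changes of -0.47 ± 0.45 at the end of dosing and -0.62 ± 0.45 (SE) after recovery. MT-ATP8, with 16 to 103 counts per library, ranged from 1.49 to 9.94 CPM and gave 0.04 ± 0.68 and -0.58 ± 0.70 (SE). Its highest value was in palbociclib initial tumour 3, and without that library the first of these was -1.08. The nuclear copy MTATP6P1 stood at 4.51 to 25.0 CPM, which is 0.0716 to 0.146 of the MT-ATP6 counts of the same library. Its 3 highest tumours (vehicle initial 2, vehicle recovery 2 and palbociclib initial 3) were also among the 4 highest for MT-ATP6.

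**Figure D4:**
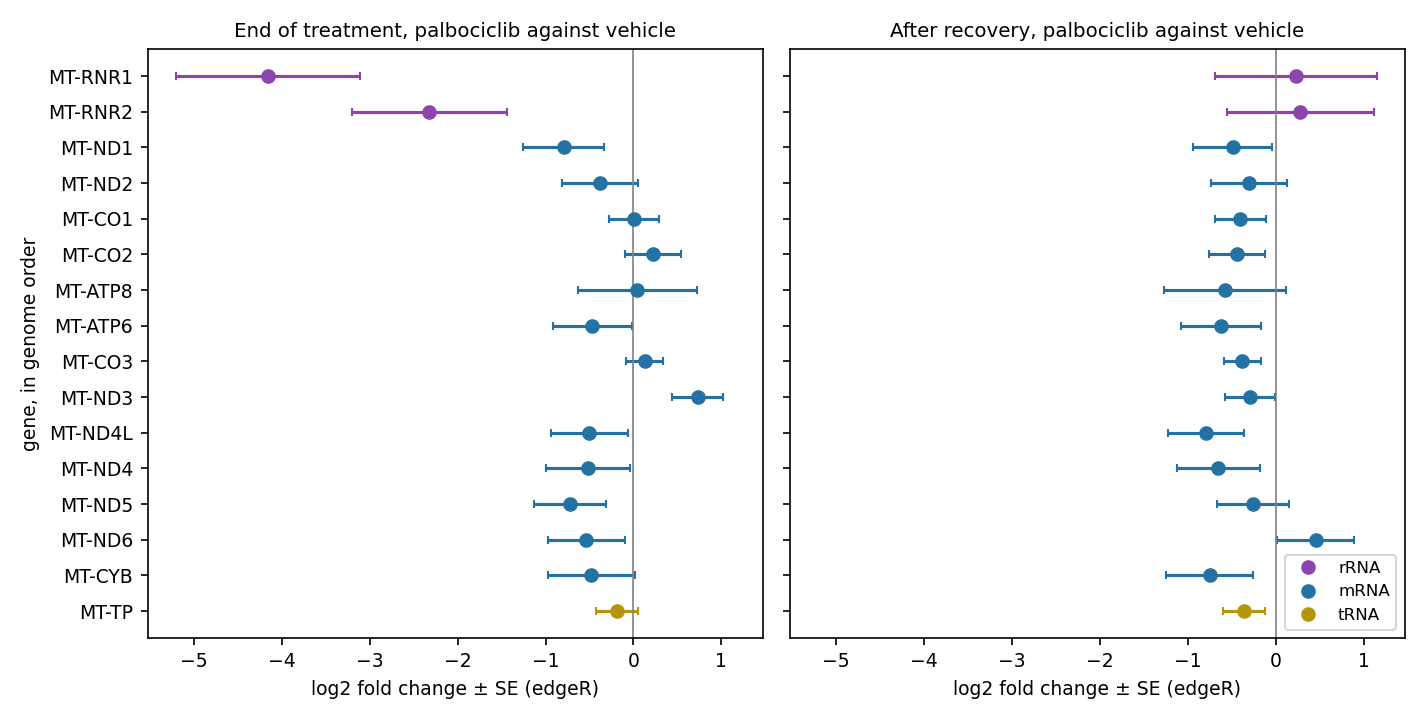
Log2 fold change with its standard error from edgeR (x axis) for the 16 genes tested, in genome order from top to bottom, for palbociclib against vehicle at the end of dosing (left) and after recovery (right), with colours for rRNA, mRNA and tRNA. The rRNAs lie at -4.16 and -2.32 on the left and near 0 on the right, and no gene passed in either panel.

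The tRNAs were almost absent from these libraries. Of the 22 genes, 18 had 0 counts in all 12 libraries and 4 had any. A count of 0 allows up to 3 counts, which is 0.0247 CPM over all libraries together and 0.243 to 0.454 in a single library, for counting error only. The 3 with counts that could not be tested held 8 counts in total and at most 2 in a library. MT-TP had 58 to 120 counts per library. Its level was 9.62, 10.7 and 10.6 CPM in vehicle initial tumours 1 to 3, 7.48, 7.95 and 11.6 CPM in palbociclib initial, 9.10, 9.04 and 8.59 CPM in vehicle recovery and 5.78, 5.39 and 9.68 CPM in palbociclib recovery tumours. The treatment groups overlapped at both times, and vehicle recovery lay below vehicle initial without overlap, as 8.03% of all genes did (6.71% lay above, among them 0 members). The log2 fold changes of MT-TP were -0.19 ± 0.24 and -0.36 ± 0.24 (SE; edgeR adjusted p = 0.89 and 0.62). Vehicle initial tumours 2 and 3, which held by far the most rRNA, differed from vehicle initial tumour 1 by about 1 CPM in MT-TP.

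The nuclear genes that make, process and translate these transcripts were also read out. In 6 lists (transcription, genome replication, RNA processing and stability, rRNA modification, tRNA modification and biogenesis regulators) 60 of 60 genes were tested, and 0 passed in edgeR at either time. Over all genes 1.84% and 0.00537% passed. An unadjusted p under 0.05 was found for 6 of the 60 at the end of dosing and 4 after recovery, where 9.86% and 8.65% of all genes had one. The median log2 fold change was 0.03 at the end of dosing and -0.03 after recovery. DESeq2 called 0 of the 60 at either time. POLRMT, the RNA polymerase of the organelle, gave 0.04 ± 0.13 and 0.02 ± 0.13 (log2 ± SE) at these times. TFAM, which packages the genome and starts transcription, gave -0.02 ± 0.14 and -0.28 ± 0.14, and TFB2M, which opens the promoter, 0.02 ± 0.20 and -0.18 ± 0.20. LRPPRC and SLIRP, partners that stabilise mitochondrial mRNAs, gave 0.07 ± 0.11 and -0.04 ± 0.11 at the end of dosing, and -0.06 ± 0.11 and -0.26 ± 0.11 after recovery. TWNK, the replicative helicase, gave 0.28 ± 0.19 and -0.04 ± 0.18. PPARGC1A, a coactivator of mitochondrial biogenesis, gave -0.16 ± 0.26 and 0.34 ± 0.26.

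The genes with the smallest p in these lists at the end of dosing did not pass either. Among biogenesis regulators these were PPARGC1B, a coactivator related to PPARGC1A, at -0.59 ± 0.17, NRF1, a transcription factor for nuclear mitochondrial genes, at -0.47 ± 0.16, and GABPA, another such factor, at 0.27 ± 0.16 (log2 ± SE; edgeR adjusted p = 0.12, 0.24 and 0.67). PPARGC1B stood at 28.2, 43.8 and 36.1 CPM in vehicle initial tumours 1 to 3 and at 21.9, 23.9 and 25.8 CPM in palbociclib initial tumours. It was lower without overlap, as 11.3% of all genes were, and it is named here for its small p. Among processing genes, FASTKD5, which acts on unusual precursor ends, gave 0.38 ± 0.14, REXO2, an exonuclease of short RNAs, 0.32 ± 0.14 and ELAC2, which cuts the 3′ ends of tRNAs, 0.20 ± 0.13. In replication PRIMPOL, a primase-polymerase, gave -0.44 ± 0.16 and POLG2, the accessory subunit of the replicase, 0.19 ± 0.16. MTERF2, TFB1M and TEFM of the transcription list gave 0.35 ± 0.18, -0.25 ± 0.18 and -0.18 ± 0.20. TRMT61B, MRM3 and MRM2, which modify mitochondrial rRNA, gave 0.38 ± 0.16, -0.31 ± 0.20 and -0.21 ± 0.15. GTPBP3, TRMU and NSUN3, which modify mitochondrial tRNAs, gave -0.33 ± 0.18, -0.16 ± 0.12 and 0.18 ± 0.13. Positive and negative values thus stood side by side within most lists.

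Of 83 mitochondrial ribosomal proteins 82 were tested and 0 passed in edgeR at either time (0 and 4 under 0.05 unadjusted, 0 in DESeq2), with median log2 fold changes of -0.00 at the end of dosing and -0.12 after recovery. MRPL39, MRPL42 and MRPL41 had the smallest p at the end of dosing, at -0.31 ± 0.16, 0.19 ± 0.10 and 0.25 ± 0.15 (log2 ± SE). Of 407 nuclear genes whose symbols mark them as copies of mitochondrial genes, 15 were tested and 0 passed in edgeR at either time (1 and 1 under 0.05 unadjusted, 0 in DESeq2), with medians of -0.26 and 0.41. MTRNR2L12 gave -2.26 ± 1.02, MTND2P28 -1.55 ± 0.85 and MTND2P2 1.20 ± 0.62 at the end of dosing. Among the epithelial markers KRT5 was the 1 of 12 that passed at the end of dosing, at 0.74 ± 0.17 (log2 ± SE; edgeR adjusted p = 0.0396), and 0 of 12 passed after recovery. Over all genes 1.84% and 0.00537% passed at these times, and 9.86% and 8.65% had an unadjusted p under 0.05.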

How the data were processed

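RNA of homogenised tumours was purified with RNeasy columns and made into TruSeq RNA libraries, per the labels' protocols. The authors deposited raw counts by Ensembl identifier, human and mouse in 1 file per tumour. STAR, cutadapt, edgeR and CASAVA 1.8 and the builds GRCh38 and GRCm38 are named in the submitters' processing notes. The counting program, strand setting and handling of reads that fit several places were not given in the sources used here, so overlapping genes, MT-ND6 and other minus-strand genes, and genes with nuclear copies are uncertain. The 4 rows per file that name no gene (37.04% to 69.1% of counts) were left out, and 713 repeated rows were removed. Symbols and coordinates came from GENCODE 29, which named 57980 human identifiers.

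Human genes were fitted in R 4.3.3 with edgeR 4.0.16 on the human total (TMM scaling, filterByExpr at minimum count 10 and minimum total 15, glmQLFit with robust estimation). All 12 libraries entered 1 model with 4 group means, which tested 18628 genes, and p-values were adjusted over all of them. CPM are counts per 1000000 human counts with TMM-scaled library sizes. DESeq2 1.42.0, other scalings and filters, the mouse share as a covariate and left-out libraries were alternatives. The steps were tested on simulated data. Named were all 37 members, 7 fixed regulators and, per list without a passing gene, the 3 with the smallest p at the end of dosing; ratios between members, SNORD3A by tumour and MTATP6P1 were chosen after their values were seen. The members and lists were chosen with earlier results of these data known.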

Additional observations from a re-analysis of the deposited data

How the results depend on the processing

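No paired analysis was possible because the labels give no replicate numbers, and the tumour numbers used here follow the order of deposition and pair nothing. With no filter on low counts 5 members passed at the end of dosing, 4 after recovery, 3 in the difference, 2 over time in vehicle and 3 in palbociclib tumours. In the same order, 1.96%, 2.06%, 0.832%, 2.92% and 2.98% of all 38457 genes then tested passed. The members then tested were those with any count, namely both rRNAs, all mRNAs, MT-TP and the few other tRNA genes with counts. The numbers of members passed were the same without robust estimation, an alternative chosen after seeing the data. In these fits the prior degrees of freedom were infinite, so every gene took the trended spread. DESeq2 called 1 member at the end of dosing and 1 over time in vehicle tumours (MT-RNR1 in both). Leaving out 1 library gave 0 to 1 members at the end of dosing, and 0 in the other comparisons. The 1 was MT-RNR1 without vehicle initial library 1 (-4.69, edgeR adjusted p = 0.0231), a fit in which 1.36% of all genes passed.

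Without vehicle initial libraries 2 and 3, which leaves 1 tumour in that group, the class log2 ratios at the end of dosing were -0.18 for rRNA and -0.47 for rRNA over mRNA. Log2 fold changes then turned for MT-RNR2 (0.17, and 0.47 over time in vehicle tumours), MT-ND1 (0.069), MT-ND2 (0.33), MT-ND4 (0.29), MT-ND4L (0.40), MT-ND5 (0.071), MT-ND6 (0.010), MT-CYB (0.53) and MT-ATP6 (0.61). With the mouse share as a covariate the sign turned for MT-CO1 (-0.48), MT-CO2 (-0.33), MT-CO3 (-0.22) and MT-ATP8 (-1.21) at the end of dosing, and for MT-RNR1 (-0.77), MT-RNR2 (-0.65) and MT-ND6 (-0.14) after recovery. The cause was not tested.

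Leaving out 1 library at a time moved the end-of-dosing values of MT-RNR1 from -4.78 to -3.04, MT-RNR2 from -2.86 to -1.36 and MT-ND3 from 0.27 to 0.93. It turned MT-CO1 (-0.37 to 0.19), MT-CO2 (-0.25 to 0.42), MT-CO3 (-0.15 to 0.26) and MT-ATP8 (-1.08 to 0.44). The other mRNAs stayed negative, namely MT-ND1 (-1.23 to -0.56), MT-ND2 (-0.64 to -0.13), MT-ND4 (-1.09 to -0.28) and MT-ND4L (-0.89 to -0.28). So did MT-ND5 (-1.12 to -0.54), MT-ND6 (-0.92 to -0.19), MT-CYB (-1.07 to -0.15) and MT-ATP6 (-0.91 to -0.18). After recovery leaving out 1 library turned MT-RNR1 (-0.33 to 0.96), MT-RNR2 (-0.20 to 1.32), MT-ND2 (-0.66 to 0.29), MT-ND3 (-0.44 to 0.025), MT-ND5 (-0.57 to 0.019), MT-ND6 (-0.20 to 0.76) and MT-ATP8 (-0.95 to 0.31). Over time only MT-RNR1, MT-RNR2 and MT-ND3 were followed in this way. There it turned MT-ND3 in vehicle (-0.016 to 0.45) and MT-RNR1 in palbociclib tumours (-0.023 to 1.17). Under the other alternatives 371 of the single-gene values kept direction and call, 17 turned sign and 19 came to pass. Under left-out libraries 473 kept both, 18 turned sign and 1 came to pass. These counts cover every member tested for palbociclib against vehicle, but only MT-RNR1, MT-RNR2 and MT-ND3 in the other comparisons. As no member passed in the main fit, keeping the call means not passing. With 3 tumours a group, differences of the size seen between single libraries limit what can be called.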
